A study of Homo sapiens with 8 samples.

Results

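Transcripts of 8 S100 genes were followed in MOLM-13 leukemia cells treated with PR-957. The genes were chosen by name from the deposited count table and make up 8 of its 38551 genes. Of these, S100A8, S100A9 and S100A12 belong to the myeloid calgranulins, and S100A4, S100A6, S100A10 and S100A11 are expressed in many tissues. S100P was grouped with the latter for comparison, without a claim that its expression is as broad. MOLM-13 is an established human acute myeloid leukemia line with a rearranged KMT2A gene. PR-957, also named ONX-0914, blocks PSMB8, which is among the catalytic subunits of the immunoproteasome. The study asked which transcripts respond to the inhibitor, and polyA RNA was sequenced from 4 libraries treated with 100 nM PR-957 and 4 libraries that received DMSO as diluent, both for 72 h. All 8 libraries came from the same line, so 1 genetic background, 1 dose and 1 time were measured. No label says that replicates were separate cultures, and the p-values below therefore measure the spread between these libraries, which may be technical.

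S100 proteins are small calcium-binding proteins that mostly work as dimers. S100A8 and S100A9 form calprotectin, an abundant cytosolic complex of neutrophils and monocytes that binds calcium, zinc and manganese and, once released, signals through receptors such as TLR4. Within the myeloid lineage the calprotectin genes are switched on as progenitors mature, whereas S100A4, S100A6, S100A10 and S100A11 are known for binding myosin, annexins and other cell-structure proteins in most cell types.

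The calgranulin genes lie close together on chromosome 1, and S100P lies on chromosome 4. To show the start regions of the 3 calgranulins and of the member that moved the other way, the 250 bases upstream of the RefSeq start of each gene (GRCh38.p14) are given on the gene's own strand. These regions are chr1:153391074-153391323 (minus strand) for S100A8, chr1:153357604-153357853 (plus strand) for S100A9, chr1:153375622-153375871 (minus strand) for S100A12 and chr4:6693628-6693877 (plus strand) for S100P. For S100A8 the start of the canonical transcript was used, since the table holds 3 starts. Capitals mark matches on either strand to a C/EBP motif (TTNNGNAA, reverse TTNCNNAA), a TATA box (TATAAA, reverse TTTATA) and the GAGGAA core bound by PU.1 (reverse TTCCTC).
S100A8: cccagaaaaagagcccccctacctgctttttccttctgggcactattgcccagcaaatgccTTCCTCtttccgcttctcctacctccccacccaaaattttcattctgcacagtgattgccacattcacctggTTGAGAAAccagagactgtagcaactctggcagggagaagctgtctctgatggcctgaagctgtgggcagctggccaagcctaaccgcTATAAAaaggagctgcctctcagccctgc
S100A9: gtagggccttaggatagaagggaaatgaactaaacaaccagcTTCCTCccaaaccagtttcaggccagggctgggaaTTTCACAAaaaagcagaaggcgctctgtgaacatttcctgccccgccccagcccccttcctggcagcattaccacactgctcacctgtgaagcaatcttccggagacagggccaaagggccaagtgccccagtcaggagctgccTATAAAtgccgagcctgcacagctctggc
S100A12: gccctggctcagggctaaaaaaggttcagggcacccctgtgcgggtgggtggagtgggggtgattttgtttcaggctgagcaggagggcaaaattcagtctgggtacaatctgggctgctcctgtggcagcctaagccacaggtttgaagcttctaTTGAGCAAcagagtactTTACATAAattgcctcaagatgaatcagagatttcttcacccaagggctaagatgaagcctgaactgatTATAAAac
S100P: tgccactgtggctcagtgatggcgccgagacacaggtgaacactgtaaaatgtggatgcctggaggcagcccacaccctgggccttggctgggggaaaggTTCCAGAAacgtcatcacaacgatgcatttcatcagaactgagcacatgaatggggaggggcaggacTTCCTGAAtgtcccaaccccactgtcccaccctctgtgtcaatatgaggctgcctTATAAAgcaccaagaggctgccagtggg
All 4 windows hold a TATAAA, which starts 29 bases before the annotated start in both S100A8 and S100A9, 28 bases before it in S100P and 8 bases before it in S100A12. Each also holds a C/EBP match, with 1 in S100A8, 1 in S100A9, 2 in S100A12 and 2 in S100P. The PU.1 core was found in S100A8 and S100A9 and not in the windows of S100A12 and S100P. The window of S100A4, not printed, also holds a TATAAA, which starts 31 bases before its annotated start. Among 35116 promoter windows of this length, 33.2% hold the C/EBP motif, 10.7% the TATA box and 23.6% the PU.1 core. No motif overlapped another, and a match is a description of the letters only.

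Total counts per library ran from 16675036 to 23111223, with DMSO replicate 4 the deepest. That library stood apart from the other 3 of its group in 478 of 13179 tested genes (3.63%), against 0.690% to 1.40% for each of the remaining 7 libraries. Results that rest on it are therefore given with and without it. The mitochondrial share of counts was 2.28% ± 0.34 (SD, n = 4) with DMSO and 4.70% ± 0.449 with PR-957 (exact permutation p = 0.0286, two-sided, the smallest that 4 against 4 libraries can give). All 6 genes listed for the identity of the line (PTPRC, CD33, SPI1, FLT3, HOXA9 and MEIS1) were detected, with a summed level of 788 to 861 CPM (counts scaled to a common library size) with DMSO and 561 to 601 CPM with PR-957. T cell, keratinocyte and erythroid or megakaryocyte markers had no gene above the filter on low counts, and CD3E, PF4, PPBP, SPRR1B, IVL and LOR were at 0 in all libraries. For 4 B cell markers, of which 2 were tested, the sums were 16.9 to 20.2 CPM with DMSO and 13.9 to 18.4 CPM with PR-957. Most of both sums was PAX5, at 15.9 to 19.4 CPM and 12.7 to 17.5 CPM. The 5 stromal and endothelial markers summed to 44.03 to 64.7 CPM with DMSO and 83.8 to 86.9 CPM with PR-957, of which PECAM1, which monocytes also express, gave 42.7 to 63.2 CPM and 80.7 to 85.1 CPM. The 10 markers of later neutrophils summed to 73.4 to 81.8 CPM and 87.3 to 97.3 CPM. Most of both sums was CSF3R alone, at 68.7 to 78.1 CPM and 82.1 to 89.7 CPM, and 7 of these markers were not tested. The part of these shifts in the values of the S100 genes was not tested, and in bulk RNA fewer cells of a type and less RNA per cell cannot be told apart.

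PR-957 raised both calprotectin transcripts from a low level, S100A8 by 10.9-fold and S100A9 by 6.64-fold. S100A4 and S100A6 rose less, by 2.07-fold and 1.51-fold, and S100P fell 6.74-fold. S100A10 and S100A11 did not pass the test, and S100A12 was almost undetected. Of the 7 genes with enough counts to be tested, 4 were higher and 1 was lower in the quasi-likelihood test of edgeR (adjusted p under 0.05, Benjamini-Hochberg over all genes tested). Across all 13179 tested genes 46.6% were called, 23.1% higher and 23.5% lower. Groups did not overlap for 5 of the 7 genes, against 42.5% of all tested genes (20.8% higher). The median log2 fold change was 0.59 for these 7 genes and 0.003 for all tested genes. Calls of at least 2-fold were made for 2.63% of genes upward and 2.39% downward, and S100A8, S100A9 and S100A4 were among the former and S100P among the latter.

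**Figure D1:**
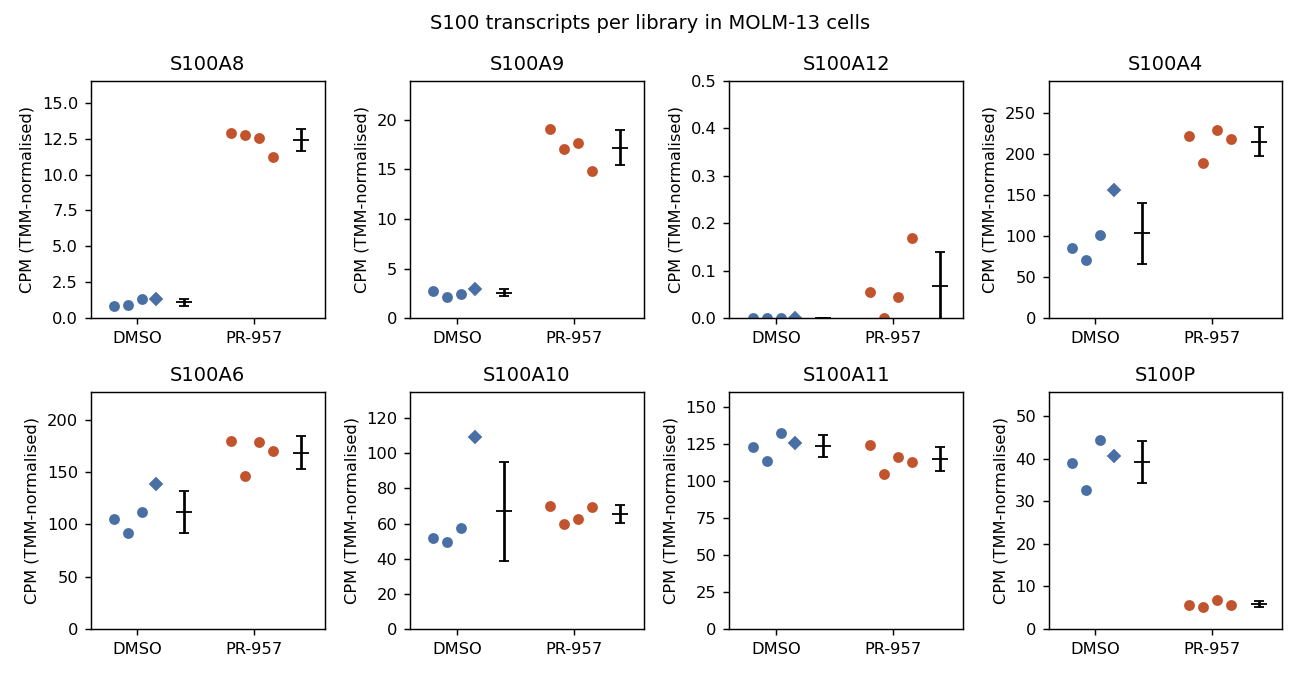
TMM-normalised CPM of the 8 S100 genes per library (points, y axis from 0; the diamond is DMSO replicate 4) with the mean ± SD of each group beside them (n = 4). S100A8 and S100A9 sit at 0.877 to 2.97 CPM with DMSO and at 11.2 to 19.1 CPM with PR-957, S100P moves the other way, and the 2 groups overlap for S100A10 and S100A11.

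S100A8 encodes the smaller calprotectin subunit (chromosome 1, 153390032 to 153422583, minus strand, hg38). Its counts in DMSO replicates 1 to 4 were 14, 17, 22 and 30, and in PR-957 replicates 1 to 4 they were 232, 245, 275 and 200. Scaled to library size by TMM (trimmed mean of M-values), these were 0.877, 0.947, 1.33 and 1.31 CPM against 12.9, 12.8, 12.6 and 11.2 CPM. Every treated library lay far above every control. The coefficient of variation was 6.22% among treated libraries and 21.3% among controls, whose low counts carry more counting error. Whether the spread differed beyond counting error was not tested. The mean of 1.12 ± 0.237 CPM became 12.4 ± 0.770 CPM (SD, n = 4), and the log2 fold change was 3.45 (SE 0.16, 95% interval 3.11 to 3.79, edgeR adjusted p = 2.61e-12). By size this increase ranked 2 among the 13179 genes tested. The annotated exons share 66 bases (9.09%) with S100A7A on the opposite strand, and S100A7A had 0 counts in all libraries.

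S100A9 encodes the larger calprotectin subunit (chromosome 1, 153357854 to 153361023, plus strand). It had 43, 38, 41 and 68 counts in DMSO replicates 1 to 4 and 342, 327, 387 and 264 counts in PR-957 replicates 1 to 4. The corresponding levels were 2.69, 2.12, 2.48 and 2.97 CPM against 19.1, 17.1, 17.7 and 14.8 CPM. The groups were again clearly separate, and PR-957 replicate 4 held the lowest treated value of both calprotectin genes. The means of S100A9 were 2.56 ± 0.361 and 17.2 ± 1.75 CPM. Its log2 fold change was 2.73 (SE 0.13, 95% interval 2.46 to 3.01, edgeR adjusted p = 4.57e-12) and ranked 6 among all increases.

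S100A8 gained more than its partner. The number of S100A8 counts per S100A9 count was 0.326, 0.447, 0.537 and 0.441 in DMSO replicates 1 to 4 and 0.678, 0.749, 0.711 and 0.758 in PR-957 replicates 1 to 4. All 4 treated libraries were above all 4 controls, and S100A9 kept the higher count in each library. These counts take no account of exon length, 726 bases for S100A8 and 573 for S100A9, so they do not order the 2 transcripts. The mean ratio moved from 0.438 ± 0.0865 to 0.724 ± 0.0366, a difference of 0.73 on the log2 scale (exact permutation p = 0.0286, two-sided, adjusted p = 0.0286 over 11 pairs of genes).

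S100A12, the third calgranulin and a ligand of the receptor AGER, lies between S100A9 and S100A8 (chromosome 1, 153373711 to 153375621, minus strand), 12.7 kb from the first and 14.4 kb from the second. It had 0 counts in all 4 DMSO libraries and 1, 0, 1 and 3 counts in PR-957 replicates 1 to 4. These sums of 0 and 5 counts were too low for the test. Each library was at or under the 3 counts that an observed 0 allows (0.131 to 0.188 TMM-normalised CPM by library), so no fold is given and a change was not detectable at this depth.

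S100A4, a partner of non-muscle myosin (chromosome 1, 153543621 to 153545806, minus strand), had 86.1, 70.8, 102 and 156 CPM in DMSO replicates 1 to 4 and 222, 190, 229 and 219 CPM in PR-957 replicates 1 to 4. The groups did not overlap, but DMSO replicate 4 was well above the other controls. The mean went up from 104 ± 37.3 to 215 ± 17.5 CPM, and its log2 fold change was 1.05 (SE 0.25, 95% interval 0.44 to 1.65, edgeR adjusted p = 0.0143). Without DMSO replicate 4 the log2 fold change was 1.32 (adjusted p = 2.81e-05). Within replicates 1 and 2 it was 1.40 (adjusted p = 1.55e-17) and within replicates 3 and 4 it was 0.79 (adjusted p = 0.145), so the call was lost in the second pair. Exons of S100A4 share 54 bases (9.61%) with LOC101928034 on the opposite strand.

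S100A6, or calcyclin, lies near it with S100A5 between them (chromosome 1, 153534599 to 153536049, minus strand). Its levels were 105, 91.5, 111 and 139 CPM with DMSO and 180, 146, 179 and 170 CPM with PR-957. All treated libraries exceeded all controls, with DMSO replicate 4 only just below PR-957 replicate 2. The means were 112 ± 19.8 and 169 ± 15.7 CPM, and the log2 fold change was 0.59 (SE 0.12, 95% interval 0.31 to 0.87, edgeR adjusted p = 0.0038). This call held in all 19 alternative analyses, with log2 fold changes from 0.47 to 0.73.

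S100A10 encodes the subunit that pairs with annexin A2 at membranes (chromosome 1, 151982915 to 151993859, minus strand). Its levels were 52.0, 49.5, 57.4 and 109 CPM in DMSO replicates 1 to 4 and 70.1, 60.0, 62.5 and 69.7 CPM in PR-957 replicates 1 to 4. DMSO replicate 4 was the highest of all 8 libraries, while the other 3 controls lay below every treated library. With all libraries the means were 67.0 ± 28.3 and 65.6 ± 5.08 CPM and the log2 fold change was -0.04 (SE 0.28, 95% interval -0.72 to 0.64, edgeR adjusted p = 0.919). Without DMSO replicate 4 the control mean was 53.0 ± 4.07 CPM and the log2 fold change 0.31 (95% interval 0.16 to 0.45, adjusted p = 0.000942). Replicates 1 and 2 alone gave 0.36 (adjusted p = 0.000353) and replicates 3 and 4 alone gave -0.35 (adjusted p = 0.635). Whether S100A10 was called thus depended on this library. Without DMSO replicate 4, 5 of the 7 tested members were higher and 1 lower, while 47.2% of all genes were called (23.4% higher). Counts were also 5 and 1 within replicates 1 and 2, where 40.4% of genes were called, and 3 and 1 within replicates 3 and 4, where 34.6% were.

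S100A11, a partner of annexin A1 (chromosome 1, 152032506 to 152037004, minus strand), had levels of 123, 114, 132 and 126 CPM with DMSO and 124, 105, 116 and 113 CPM with PR-957. The groups overlapped, and no library stood far from the rest, at 124 ± 7.66 and 115 ± 8.04 CPM. The log2 fold change of -0.11 (SE 0.06, 95% interval -0.24 to 0.02, edgeR adjusted p = 0.156) did not pass the threshold, and neither did that of any of the 19 alternatives. Processed copies of S100A11 exist in the genome, so its level carries an uncertainty that these counts do not show.

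S100P, first described in placenta and a ligand of AGER outside the cell (chromosome 4, 6693878 to 6697170, plus strand), was the member that fell. Its counts were 624, 586, 737 and 933 in DMSO replicates 1 to 4 and 100, 100, 148 and 100 in PR-957 replicates 1 to 4. As levels these were 39.1, 32.6, 44.5 and 40.8 CPM against 5.57, 5.22, 6.76 and 5.62 CPM. The groups were far apart, and DMSO replicate 4 lay within the range of the other controls. The mean dropped from 39.2 ± 4.95 to 5.79 ± 0.667 CPM, and its log2 fold change was -2.75 (SE 0.11, 95% interval -2.98 to -2.53, edgeR adjusted p = 1.56e-13), which ranked 42 among all decreases.

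**Figure D2:**
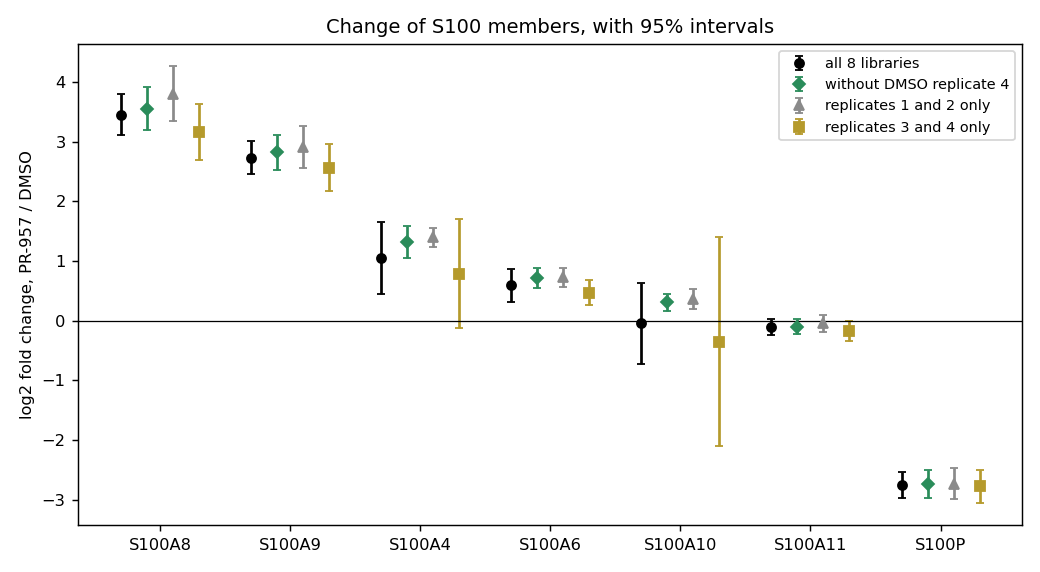
Log2 fold change (PR-957 over DMSO, y axis) with its 95% interval for the 7 tested S100 genes with all 8 libraries, without DMSO replicate 4, and within replicates 1 and 2 or 3 and 4. S100A8, S100A9, S100A6 and S100P keep their side of 0 with every interval clear of it, S100A4 loses this in replicates 3 and 4 (0.79), and S100A10 goes from 0.36 to -0.35 between the library pairs.

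The calprotectin genes were then compared with S100A4, S100A6, S100A10, S100A11 and S100P library by library, as ratios of counts in which library scaling cancels. For S100A8 the log2 ratio to S100A4 rose by 2.35, to S100A6 by 2.86, to S100A10 by 3.41, to S100A11 by 3.57 and to S100P by 6.21. For S100A9 the differences were 1.62, 2.13, 2.69, 2.84 and 5.49 in the same order. Every one of these 10 ratios was higher in all 4 PR-957 libraries than in all 4 DMSO libraries (exact permutation p = 0.0286, two-sided, adjusted p = 0.0286 over 11 pairs, the smallest that the design allows). The calprotectin transcripts therefore gained on each of these 5 genes beyond the spread between libraries, also on S100A4 and S100A6, which rose themselves. The shifts against S100P include its own fall of 2.75 on the log2 scale.

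The order of S100P and calprotectin turned over. There were 0.0284 ± 0.00417 S100A8 counts per S100P count with DMSO and 2.16 ± 0.275 with PR-957. For S100A9 the ratio went from 0.0656 ± 0.00739 to 2.99 ± 0.419. In all 4 controls S100P had more counts than either calprotectin gene, and in all 4 treated libraries it had fewer.

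**Figure D3:**
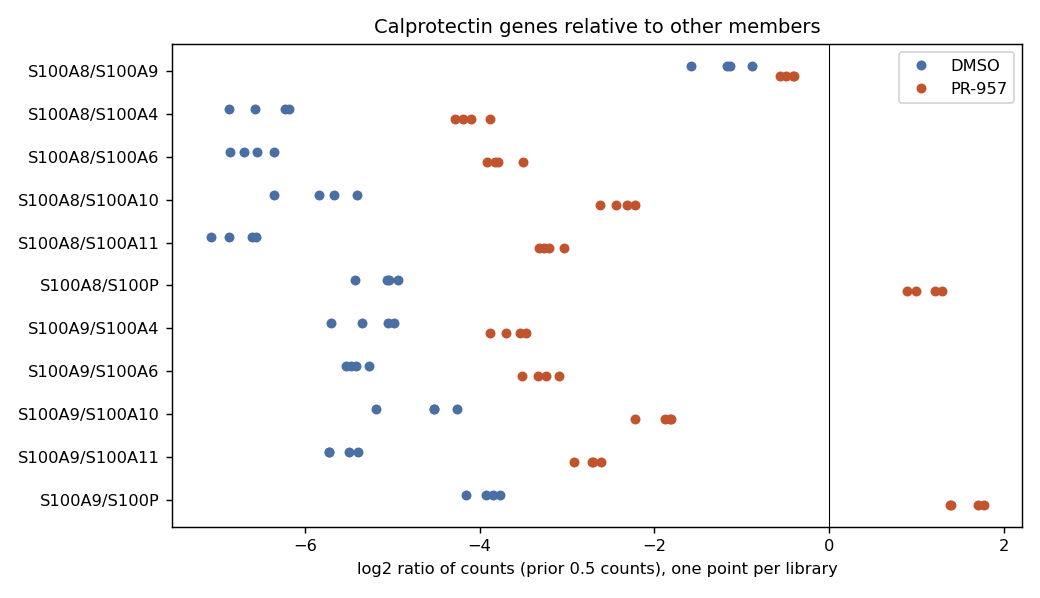
Log2 ratio of counts (x axis, 1 point per library) of S100A8 or S100A9 to other S100 genes in DMSO and PR-957 libraries. In all 11 pairs the 4 treated libraries lie to the right of the 4 controls, and the ratios to S100P cross 0.

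Levels were compared between genes per kilobase of annotated exon. For S100A8 this length, 726 bases, covers an annotated span that reaches beyond the canonical start, so its level per kilobase may be too low. With DMSO the order was S100A6 (220 ± 39.1 CPM per kb), S100A11 (219 ± 13.6), S100A4 (185 ± 66.3), S100A10 (99.8 ± 42.1) and S100P (83.3 ± 10.5 CPM per kb), and each of these overlapped with its neighbour. S100A9 at 4.47 ± 0.630 and S100A8 at 1.54 ± 0.327 CPM per kb followed without overlap. With PR-957 the order was S100A4 (383 ± 31.1 CPM per kb), S100A6 (333 ± 31.0), S100A11 (203 ± 14.3), S100A10 (97.7 ± 7.56), S100A9 (29.9 ± 3.06), S100A8 (17.1 ± 1.06) and S100P (12.3 ± 1.42 CPM per kb). Only S100A4 and S100A6 overlapped as neighbours in this order. Calprotectin thus remained below S100A4, S100A6, S100A10 and S100A11 in treated cells in spite of its larger fold change.

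As a share of the summed level per kilobase of 20 S100 genes, S100A8 and S100A9 made up 0.187% ± 0.0264 and 0.549% ± 0.0560 with DMSO and 1.58% ± 0.172 and 2.77% ± 0.303 with PR-957. S100P dropped from 10.3% ± 1.39 to 1.13% ± 0.10. S100A4 went from 21.9% ± 3.33 to 35.3% ± 0.697 and S100A11 from 27.2% ± 4.01 to 18.8% ± 0.538. S100A4 and S100A6 together therefore held most of the S100 transcript pool of treated cells, with S100A6 at 30.6% ± 0.584.

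Few other genes around the S100A members had enough counts to be compared. The interval from S100A10 to S100A1 on chromosome 1 (151982915 to 153632039) spans 1649 kb and holds 75 annotated genes, of which 9 were tested. Of the 68 genes there that were not followed as members, 50 had 0 counts in all libraries. Besides the 6 members, TCHH (log2 fold change 0.82, adjusted p = 0.0767) and S100A3 (0.65, adjusted p = 0.269) did not pass the threshold. TCHH passed it without DMSO replicate 3 (1.15) or PR-957 replicate 2 (0.99), and S100A3 without DMSO replicate 4 (1.35, adjusted p = 0.0329) and in replicates 1 and 2 only (1.78). S100A1 fell by 1.63 on the log2 scale (edgeR adjusted p = 0.00133).

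**Figure D4:**
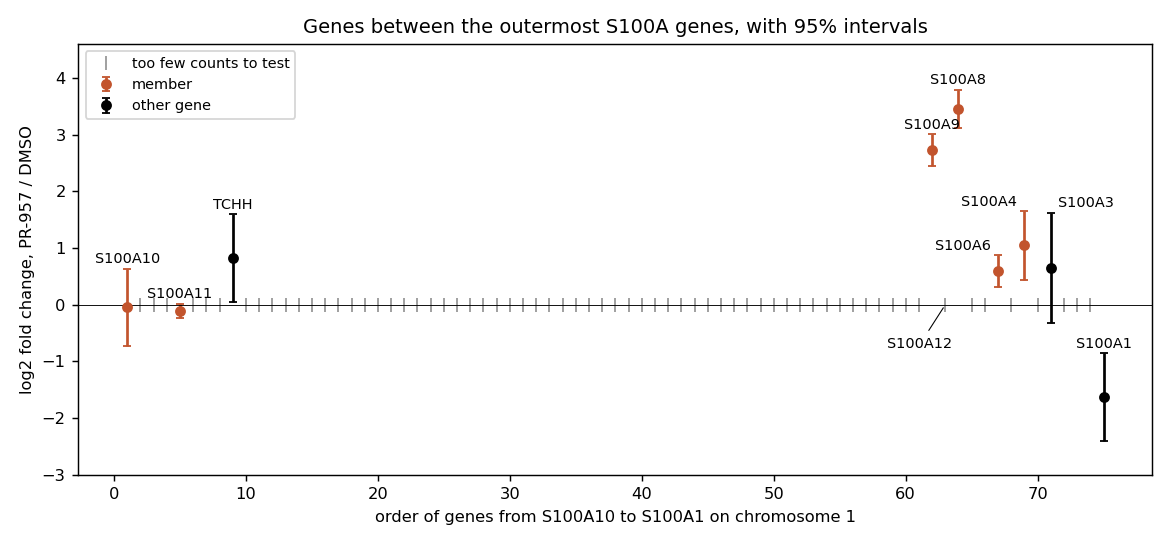
Log2 fold change with its 95% interval (y axis) of the tested genes in the interval from S100A10 to S100A1, in their order on chromosome 1 (x axis), with ticks for genes with too few counts. S100A9 (2.73) and S100A8 (3.45) stand above the other tested genes of the interval, with the untested S100A12 between them, and S100A1 lies lowest at -1.63.

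Of 12 other S100 genes, 4 were tested, 1 was higher and 1 was lower (median log2 fold change 0.24). Across all tested genes, 23.1% were higher and 23.5% lower. S100A1 had 24, 15, 22 and 65 counts in DMSO replicates 1 to 4 and 7, 9, 16 and 9 in PR-957 replicates 1 to 4. It shares 36 exon bases (6.44%) with S100A13 on the opposite strand. S100B was higher by 1.10 (edgeR adjusted p = 0.0151), although its groups overlapped, and lost its call without PR-957 replicate 3 (0.89, adjusted p = 0.0627). The 8 untested genes, among them S100A7, S100A7A and S100A14 of surface epithelia, had at most 9 counts in any library.

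Among 9 receptors to which S100 proteins bind, 7 were tested. Of these, 2 were higher and 0 lower (median 0.14), where 46.6% of all tested genes were called. CD36, a scavenger receptor that takes up fatty acids carried by calprotectin, went from 3.40 ± 0.967 to 11.02 ± 0.649 CPM (log2 fold change 1.68, edgeR adjusted p = 1.03e-07). NPTN, a membrane receptor of S100A8, rose by 0.28 (adjusted p = 0.00297) and missed the threshold within replicates 1 and 2 (0.13, adjusted p = 0.208). For TLR4, the calprotectin receptor of innate immunity, the value was 0.89 (adjusted p = 0.087) with overlapping groups. TLR4 was called in 6 of 19 alternatives, among them replicates 1 and 2 only (1.26, adjusted p = 7.6e-06), replicates 3 and 4 only (0.69, adjusted p = 0.0103) and all libraries but DMSO replicate 4 (1.14, adjusted p = 0.0362). For its cofactor LY96 it was -0.32 (adjusted p = 0.366). AGER, the receptor shared by S100A12 and S100P, and MCAM had too few counts to be tested, with at most 9 in any library. AGER is annotated on 7 contigs, which leaves its level uncertain.

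Partners inside the cell were tested for all 7 genes listed. Of these, 4 were higher and 1 lower (median 0.14), where 46.6% of all tested genes were called. ANXA2, which forms a complex with S100A10, rose from 43.9 ± 7.26 to 157 ± 13.1 CPM (log2 fold change 1.83, edgeR adjusted p = 5.31e-08), although its processed copies make the level uncertain. ANXA1, the partner of S100A11, rose by 1.10 (adjusted p = 4.71e-06) and ANXA6 by 0.42 (adjusted p = 0.000784). The S100A6 partner CACYBP rose by 0.14 (adjusted p = 0.0442) but passed in only 11 of 19 alternatives and not without DMSO replicate 1, 3 or 4 or without PR-957 replicate 1, 2 or 3. MYH9, the myosin heavy chain bound by S100A4, fell by 0.38 (adjusted p = 2.21e-05). ANXA2 and ANXA1 thus rose 3.57-fold and 2.15-fold, while the S100 genes that pair with them, S100A10 and S100A11, did not pass the test with all libraries.

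Calprotectin also supports assembly of the phagocyte NADPH oxidase. The 6 listed oxidase genes gave 2 higher and 1 lower (median 0.30), where 46.6% of all tested genes were called. The lower gene was RAC2, which went from 413 ± 37.8 to 326 ± 23.1 CPM (log2 fold change -0.34, edgeR adjusted p = 0.000339). CYBA rose by 0.38 (edgeR adjusted p = 0.000709) and NCF4 by 0.47 (adjusted p = 0.0197), the latter with overlapping groups and not without DMSO replicate 1 (0.45, adjusted p = 0.0545) or PR-957 replicate 4 (0.41, adjusted p = 0.0546). CYBB, the catalytic subunit, had 0.99 (adjusted p = 0.0591) with overlapping groups and was called in 8 of 19 alternatives, among them replicates 1 and 2 only (0.92), replicates 3 and 4 only (1.04) and all libraries but PR-957 replicate 2 (1.19, adjusted p = 0.00913).

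Of 10 myeloid transcription factors, 4 were higher and 3 lower (median -0.02), where 46.6% of all tested genes were called. They include C/EBP factors and PU.1. C/EBP motifs were marked above in S100A8, S100A9, S100A12 and also S100P, which fell. The windows of S100A6 and S100A11, not printed, held them too, and those of S100A4 and S100A10 did not. Among the members, the PU.1 core was found in S100A8 and S100A9 only. Of all promoter windows, 33.2% hold the C/EBP motif and 23.6% the PU.1 core, and a link of these matches to the changes was not tested. CEBPE, a factor of late granulocyte maturation, rose from 4.28 ± 0.992 to 12.8 ± 2.95 CPM (log2 fold change 1.58, edgeR adjusted p = 1.63e-06). CEBPB, a factor of monocyte differentiation and inflammatory gene expression, fell from 61.8 ± 9.49 to 21.4 ± 7.02 CPM (-1.52, adjusted p = 0.00257). The size of this fall differed between the library pairs, with -2.17 within replicates 1 and 2 and -0.98 within replicates 3 and 4, both past the threshold. CEBPA (-0.02, adjusted p = 0.747) and CEBPD (-0.02, adjusted p = 0.901) were not called, although CEBPD was in replicates 1 and 2 only (-0.24, adjusted p = 0.0494), and SPI1, which encodes PU.1, rose by 0.20 (adjusted p = 0.00607).

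Genes that mark myeloid maturation beside calprotectin moved in both directions. In the monocyte list of 11 genes, 8 were tested, 3 were higher and 1 was lower (median 0.36), where 46.6% of all tested genes were called, and 6 were higher without DMSO replicate 4. LYZ, or lysozyme, rose from 153 ± 16.2 to 820 ± 104 CPM (log2 fold change 2.42, edgeR adjusted p = 7.92e-10) and MNDA, a nuclear antigen of myeloid cells, by 2.06 (adjusted p = 1.18e-07). CSTA, which encodes the protease inhibitor cystatin A, fell from 200 ± 8.24 to 116 ± 14.02 CPM (-0.79, adjusted p = 7.38e-08). Of 5 primary granule genes, 4 were tested and 3 were higher (median 0.97), where 23.1% of all tested genes were higher. MPO, the granule peroxidase, was up by 1.53 (adjusted p = 1.26e-12) and the protease PRTN3 by 1.66 from a low level of 0.447 ± 0.129 CPM (adjusted p = 0.000497). Among 10 genes of later neutrophils, 3 were tested and 2 were higher, beside the same 23.1% of all tested genes. These were CXCR2 by 0.81 (adjusted p = 0.000874) and CSF3R by 0.25 (adjusted p = 0.00174). The other 7 had at most 5 counts in any library and CD177 was at 0 throughout. PRTN3 and NCF4 are also annotated on a second contig, which leaves their level uncertain.

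**Figure D5:**
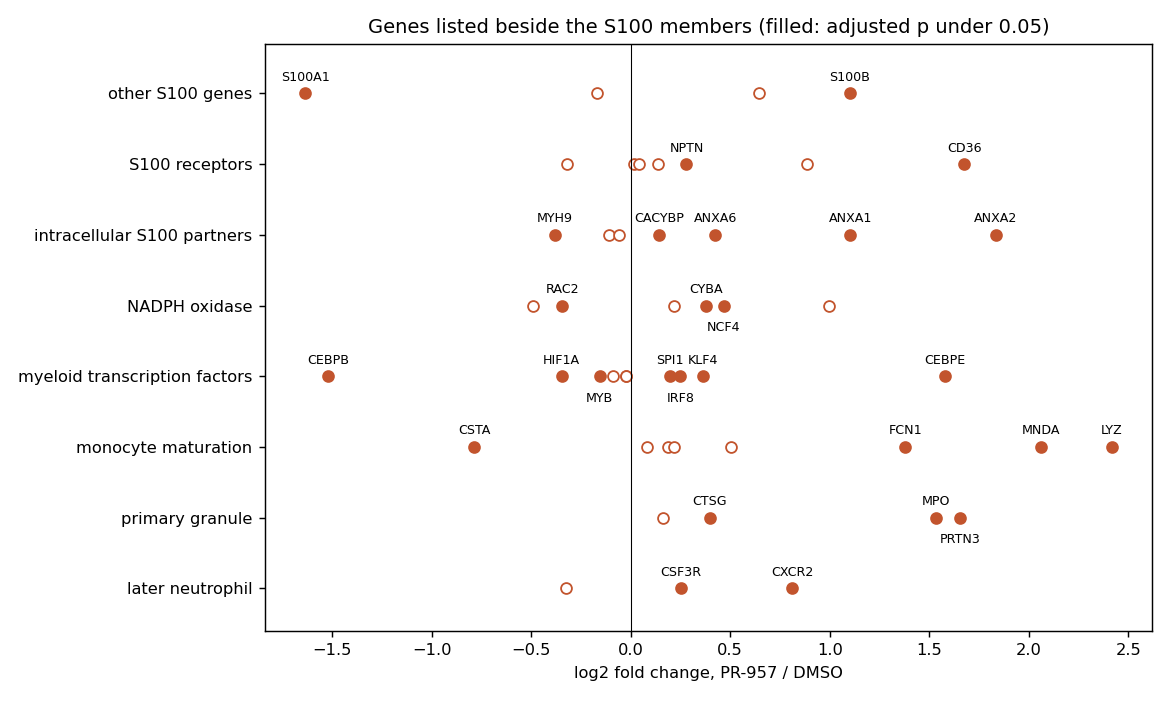
Log2 fold change (x axis) of tested genes in 8 lists (rows), filled where the adjusted p was under 0.05. LYZ (2.42) and MNDA (2.06) lie farthest to the right and S100A1 (-1.63) and CEBPB (-1.52) farthest to the left, and all of them lie closer to 0 than S100A8, S100A9 and S100P do.

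The genes whose log2 CPM followed calprotectin most closely over the 8 libraries were named as a description, among 11264 genes of sufficient level. For S100A8 these were GRN (Pearson r = 0.996), TUBA1C (0.995), FAM135B (0.995), PRR13 (0.994) and RRBP1 (0.994). S100A9 was followed by IL17RA (0.996), PLAC8 (0.996), TUBA1C (0.994), PRR13 (0.994) and RRBP1 (0.994). All values share the split into 2 treatments and the scaling of the same 8 libraries, and 13 genes for S100A8 and 17 for S100A9 exceeded 0.99. GRN, which encodes the growth factor progranulin, had a log2 fold change of 0.72, IL17RA, the receptor of interleukin 17, had 0.56, and PLAC8 had 0.89, all well below those of the calprotectin genes.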

How the data were processed

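RNA was sequenced from 8 MOLM-13 libraries (4 DMSO, 4 PR-957), grouped and numbered from the sample titles. Per the labels and file headers, the authors trimmed reads with Trimmomatic 0.39, aligned them to hg38 with STAR 2.7.10a and counted fragments per gene with featureCounts 2.0.1 on the reverse strand against NCBI RefSeq models. The sources used here do not say whether the library kit marks strand. Deposited values were raw counts that the authors had not normalized. The header's counting command named 16 libraries, of which the 8 not in the table were not analysed here. A deposited table of the authors' own comparison (mean counts, fold changes, p-values) was not used. Of the gene rows, 6 had no values and were left out.

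PR-957 was compared with DMSO with edgeR 4.0.16 under R 4.3.3 (two-sided glmQLFTest after a robust glmQLFit, no covariate, TMM scaling, filterByExpr, Benjamini-Hochberg over 13179 genes). CPM are TMM-normalised, given as mean ± SD (n = 4). Ratios used log2 counts with a prior of 0.5 and exact permutation over 70 splits. Limits for a count of 0 are 3 counts and cover counting error only. Replicates of a group differed by a chi-square of at least 3.32 per gene, so none was taken as a duplicate. The gene members, the lists, the tests and the alternatives were chosen with earlier results of these data known. Named genes were the 8 members, all called genes among other S100 genes, receptors and partners, the 2 largest calls in each further list, and the 5 genes most like S100A8 and S100A9. S100A7, S100A7A, S100A14, S100A3, S100A13, TCHH, TLR4, LY96, CYBB, RAC2, CEBPA, CEBPD, SPI1, CSTA, AGER, MCAM, PECAM1 and PAX5 were named after their values were seen. Alternatives were DESeq2 1.42.0, limma-voom (limma 3.58.1), RLE, upper-quartile or no scaling beyond totals, 2 other filters, a replicate block, a term for replicates 1 and 2 against 3 and 4, each of these pairs alone, and leaving out each library. The fit was tested on simulated counts.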

Additional observations from a re-analysis of the deposited data

Results flagged for a closer look

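In 76 group values of the members, their ratios and the named genes, the highest or lowest of the 4 libraries was checked for a gap to its nearest neighbour that exceeded Dixon's 95% limit as a share of the group's range, which chance passes in about 1 of 20 groups. The limit was passed 4 times. S100A10 was highest in DMSO replicate 4 at 109 CPM (gap 0.866 of the range), which is the library on which its call depended. ANXA1, the annexin partner of S100A11, was also highest in DMSO replicate 4 at 13.9 CPM (gap 0.872), still below all treated libraries. MYH9 was highest in PR-957 replicate 2 at 532 CPM (gap 0.846), below all controls. The log2 ratio of S100A9 to S100A10 was lowest in PR-957 replicate 4 at -2.23 (gap 0.844), above all controls.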

How the results depend on the processing

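Over 19 alternatives of the fit, S100A8 (3.16 to 3.80), S100A9 (2.56 to 2.91), S100A6 (0.47 to 0.73) and S100P (-2.84 to -2.67) kept their direction and call, and S100A11 stayed uncalled. In total 127 of 133 values of tested members kept direction and side of the threshold. S100A4 lost its call in replicates 3 and 4 only (0.79, adjusted p = 0.145). S100A10, uncalled at -0.04, turned positive with limma-voom (0.026), library totals alone (0.032), the replicate block (0.028) and replicates 1 and 2 only (0.36), and ran from -0.17 to 0.31 when libraries were left out in turn. Its adjusted p ran from 0.000353 to 0.997. In replicates 1 and 2 only and 3 and 4 only, the log2 ratio of S100A8 to S100A6 was 3.05 and 2.66, to S100A11 3.83 and 3.31 and to S100P 6.497 and 5.93. The other 137 of 143 ratio values moved by less than the spread between libraries or, under a changed prior, kept direction and call. Leaving out a library gives ratios no test. The cause of these changes was not tested.

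With the replicate number as a block, S100A4 had 1.10 (adjusted p = 0.0231), and the block changed no call of a member. Beside them it gained calls for TLR4 (0.93, adjusted p = 0.000101) and CYBB (0.99). Deviations of same-numbered libraries correlated at 0.0903 to 0.201, not all over 0.1, so the numbers were not taken to pair the samples, although 7 of 8 libraries correlated best with their own number.

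Calls in the lists numbered 18 to 26 higher and 6 to 8 lower over the alternatives, against 21 and 7. The share of all tested genes that were called moved as well. It was 46.6% with all libraries and 47.2% once DMSO replicate 4 was left out. The pair of replicates 1 and 2 gave 40.4%, and the pair of 3 and 4 gave 34.6%. For the other alternatives this share is not given, so the range of list calls cannot be set against all genes. List counts that moved by over 1.5 times were 2 other S100 genes higher in replicates 1 and 2 only and without DMSO replicate 4 (0 without PR-957 replicate 3, and 0 lower under the 1 CPM filter), 4 NADPH oxidase genes higher in replicates 1 and 2 only (1 without DMSO replicate 1 or PR-957 replicate 4), 2 transcription factors higher in replicates 3 and 4 only and 6 monocyte genes higher without DMSO replicate 4. S100A1 and PRTN3 were not tested under that filter, and near the S100A members 1 gene beside them was higher in 5 alternatives, against 0. Low counts of S100A8 with DMSO (14 to 30) and of S100A12 limit their precision.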
